A study of Mus musculus with 36 samples.

Results

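Diabetic and nondiabetic mice that had all received benzo-LXA4 were compared across every gene measured in the kidney cortex. The comparison takes 12 of the 36 libraries of the series, 6 labelled Diabetic benzo-lipoxin and 6 labelled Nondiabetic benzo-lipoxin, chosen by their labels and not by any measured value. The mice were male ApoE-/- animals on a C57BL/6 background, which lack functional apolipoprotein E. The diabetic mice had received 5 daily intraperitoneal doses of 55 mg/kg streptozotocin at 6 weeks of age. This toxin destroys the insulin-producing beta cells of the pancreas. Both groups received 1.7 µg/kg benzo-LXA4 by intraperitoneal injection 2 times a week, so the compound and the Apoe disruption are shared by cases and controls. The diabetic state and the exposure to streptozotocin differ together between the groups and cannot be told apart. The other 4 groups, used for comparison, are diabetic and nondiabetic mice of the same kind given vehicle (0.1% ethanol) or 5 µg/kg LXA4, the native lipoxin, with 6 libraries each. An intervention arm treated between weeks 10 and 16 appears in the labels, which do not tie these libraries to it, and they name no control injection for the nondiabetic mice. Replicates are numbered 1 to 6, and no label states whether every number stands for its own animal. The p-values therefore measure the spread between these samples, which may in part be technical. Each library is called below by its diabetic state and its number, such as Nondiabetic 1.

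Lipoxin A4 is a lipid mediator formed from arachidonic acid by lipoxygenases while inflammation resolves, and benzo-LXA4 is a synthetic analog in which a benzene ring is built into the chain. In the diabetic kidney the tubules reabsorb an excess of filtered glucose, and tubular growth, cell cycle arrest with induction of the p21 inhibitor, and a shift in fuel use are all known features of the cortex. The transcription factor p53 switches on Cdkn1a, the gene of p21, together with genes of DNA repair and cell death. Genes of mitosis are switched on together at the end of the cell cycle by complexes that bind CCAAT boxes and a TTTGAA element named the cell cycle homology region.

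The total count per library ran from 22222844 to 31447742 in these 12 libraries, so no library was shallow. Ribosomal and small structural RNA genes took 10.45% to 12.59% of the counts in the nondiabetic and 11.54% to 15.34% in the diabetic libraries. The cortex markers were present in every library: the summed level of 16 markers of the early proximal tubule ran from 17300 to 23730 CPM (the count scaled to a fixed normalised library total) in nondiabetic and from 14150 to 19840 CPM in diabetic libraries, and that of 16 podocyte markers from 1358 to 1614 and from 1475 to 1731 CPM. Nondiabetic 1 stood apart. Its median correlation with the other 11 libraries was 0.9729, against 0.9843 to 0.9897 for the others, and it held transcripts of brown and white fat. Ucp1, the uncoupling protein of brown fat, was at 122.5 CPM in Nondiabetic 1, at 5.13 CPM in Nondiabetic 2 and at most 0.0407 CPM in the other 10 libraries. Cfd, the adipocyte protease adipsin, was at 150 CPM in Nondiabetic 1, at 7.67 CPM in Nondiabetic 2 and at most 1.22 CPM elsewhere. Results are therefore given with and without Nondiabetic 1, and where they turn on it also without Nondiabetic 1 and 2. These are bulk libraries, in which a higher share of cells of a type and more RNA per cell cannot be told apart.

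Under benzo-LXA4, 638 of 15726 genes differed between diabetic and nondiabetic mice, 4.06% of those tested, at an adjusted p under 0.05. Of these, 442 rose (2.81%) and 196 fell (1.25%) in the diabetic mice. Without Nondiabetic 1 the counts were 337 risen (2.14%) and 90 fallen (0.572%), and 304 of the 442 risen genes and 81 of the 196 fallen genes kept their call. Of the 196 fallen genes, 37 had a level in Nondiabetic 1 more than 3 times that of any other nondiabetic library, and 35 of those 37 were no longer called without it. These counts come from a fit in which all 36 libraries share one estimate of the spread. A fit of the 12 libraries alone, whose common coefficient of biological variation was 0.156 against 0.204 in the shared fit, called 1875 genes, 1009 risen (6.47%) and 866 fallen (5.55%), or 12% of 15605 tested, and included 420 of the 442 risen and 161 of the 196 fallen genes. Without Nondiabetic 1 it called 1004 risen (6.43%) and 670 fallen (4.29%). The shared fit without Nondiabetic 1 and 2 called 307 genes (1.95%), 256 risen (1.63%) and 51 fallen (0.324%). The groups did not overlap at all in 501 genes that were higher (3.19%) and 413 that were lower (2.63%) in diabetic mice.

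Genes of the p53 response were among the largest rises. Cdkn1a (ENSMUSG00000023067, chromosome 17, 29090976 to 29100727 on GRCm38), whose product p21 blocks cyclin-dependent kinases, ran from 3.48 to 9.49 CPM (median 5.12) in the nondiabetic and from 29.2 to 46.9 CPM (median 36.5) in the diabetic libraries. It rose by 2.71 ± 0.25 (SE) on the log2 scale (adjusted p = 2.08e-09, n = 6 a group) and by 2.93 without Nondiabetic 1. The promoters of Cdkn1a and of Aen, an exonuclease gene of the p53 response, are shown here because both genes rose and both windows hold the half-site of the p53 consensus in the 250 bases before a RefSeq start (build GRCm38.p6, Cdkn1a at chr17:29090729-29090978, plus strand, and Aen at chr7:78895808-78896057, plus strand). The RefSeq table lists 2 starts for each of these genes, and the window of the start not shown held 0 matches in both. Capitals mark the matches to the half-site.
Cdkn1a: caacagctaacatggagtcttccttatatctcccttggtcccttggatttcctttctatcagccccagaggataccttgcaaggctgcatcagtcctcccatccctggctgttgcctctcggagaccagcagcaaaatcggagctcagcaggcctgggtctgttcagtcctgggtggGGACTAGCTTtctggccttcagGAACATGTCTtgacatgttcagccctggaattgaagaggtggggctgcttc
Aen: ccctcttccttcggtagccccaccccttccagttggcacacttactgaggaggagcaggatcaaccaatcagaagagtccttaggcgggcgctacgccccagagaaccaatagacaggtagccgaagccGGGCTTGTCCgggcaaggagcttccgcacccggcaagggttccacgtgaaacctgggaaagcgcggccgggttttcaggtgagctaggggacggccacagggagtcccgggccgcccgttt
The 2 half-sites of Cdkn1a begin 73 and 51 bases before the start and also matched the full consensus of paired half-sites, and that of Aen begins 121 bases before it. Of the 22 p53 targets that rose, 16 had a promoter in the RefSeq table, and 6 of the 16 (37.5%) held a half-site in this window, against 8.2% of all 27025 genes in the table. The list was made of known p53 targets, so a share above that of all genes was partly set in advance. In these and the later motif counts, a gene counted if the window of any of its listed starts held a match. List members that did not rise were not counted, so the shares cannot be tied to the rise. The search covered both strands, and a match is a description of the letters and no evidence of binding.

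Around Cdkn1a, its neighbour and its fellow p53 targets moved the same way. Trp53cor1 (chromosome 17, 29057430 to 29079179), a long noncoding RNA named lincRNA-p21 that lies next to Cdkn1a, ran from 0.447 to 0.83 CPM (median 0.656) in nondiabetic and from 5.24 to 8.09 CPM (median 6.84) in diabetic libraries, and rose by 3.38 ± 0.23 (adjusted p = 2.71e-12). Eda2r, a death-inducing receptor of the TNF receptor family, ran from 0.496 to 1.1 CPM (median 0.989) and from 7.87 to 9.22 CPM (median 8.16), and rose by 3.22 ± 0.26 (adjusted p = 9.78e-11). Psrc1, a gene of a spindle-associated protein, ran from 0.0407 to 0.191 CPM (median 0.138) and from 1.38 to 2.21 CPM (median 1.89), and rose by 3.68 ± 0.32 (adjusted p = 1.23e-09). In all 3 genes the lowest diabetic library lay far above the highest nondiabetic one. Phlda3, an inhibitor of AKT signalling that p53 induces, was at 11.9 CPM in Nondiabetic 1 and from 1.72 to 2.72 CPM in Nondiabetic 2 to 6, against 7.39 to 9.15 CPM (median 8.33) in the diabetic libraries. With Nondiabetic 1 it did not pass (log2 difference 1.12, adjusted p = 0.154), and without it the gene rose by 1.92 (adjusted p = 0.00344).

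**Figure D1:**
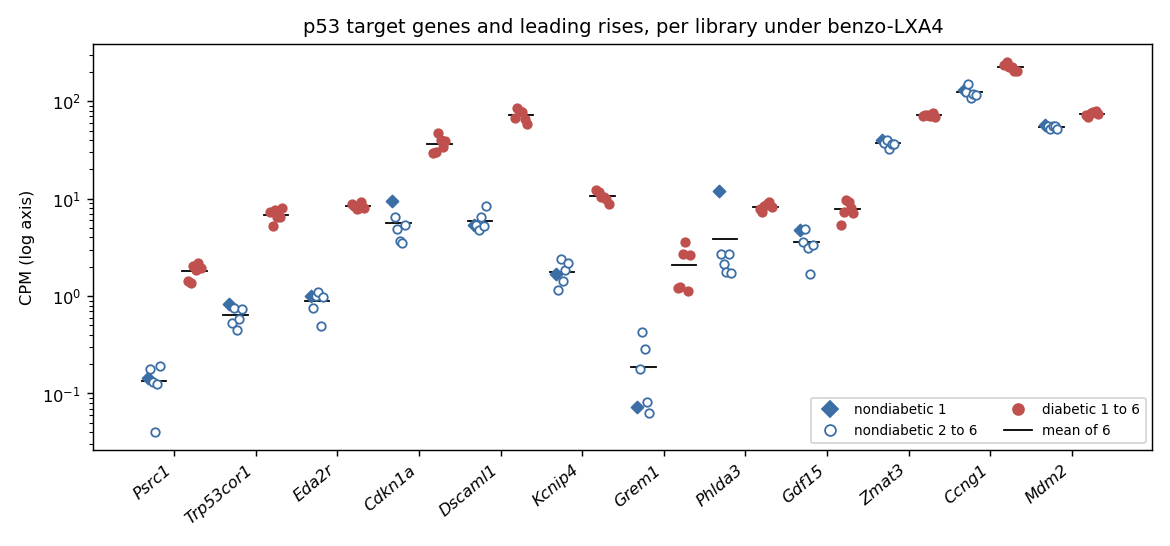
Level of 12 named genes in each of the 12 libraries, in CPM on a log axis. Blue marks are nondiabetic libraries, with Nondiabetic 1 as a filled diamond, red marks are diabetic libraries, and black bars are means of 6. The groups are apart in 11 of the genes, and Phlda3 overlaps through Nondiabetic 1 at 11.9 CPM.

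Across the list of p53 targets, 22 of 54 tested members rose and 0 fell, and the median log2 difference was 0.40, against -0.01 over all genes tested. The list was written with earlier results of these data known and contains Kcnip4 for that reason. Without Kcnip4 it was 21 of 53. Without Nondiabetic 1 there were also 22 risen members, DESeq2 called 24 risen and 0 fallen, limma voom called 28 risen and 1 fallen, and in edgeR 45 of the 54 had a higher fitted value in diabetic mice. Next to the large changes stood abundant genes with small and regular ones. Mdm2, the ligase that degrades p53, ran from 51.5 to 57.2 CPM (median 55.3) in nondiabetic and from 68.9 to 79.2 CPM (median 74.9) in diabetic libraries (log2 change 0.45 ± 0.07, adjusted p = 6.49e-05). Zmat3, an RNA-binding growth regulator, ran from 32.3 to 40.4 CPM (median 36.8) and from 69.2 to 75.5 CPM (median 71.8; log2 change 0.96 ± 0.10, adjusted p = 1.85e-08). Ccng1, cyclin G1, ran from 108 to 152 CPM (median 122) and from 205 to 251 CPM (median 227; log2 change 0.84 ± 0.14, adjusted p = 3.36e-04). The groups were apart in each. Gdf15, a stress hormone of the TGF-beta family, rose by 1.12 ± 0.23 (adjusted p = 0.00275), Trp53inp1, a stress-induced antiproliferative protein, by 0.84 ± 0.12 (adjusted p = 5.84e-05) and Tnfrsf10b, the TRAIL death receptor, by 0.93 ± 0.15 (adjusted p = 2.25e-04). Bbc3, the proapoptotic PUMA, had a difference of 0.95 that did not pass (adjusted p = 0.0662), although its groups did not overlap, and Fas had one of 0.28 (adjusted p = 0.368).

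Kcnip4 and several genes outside the p53 list were also among the leading rises. Dscaml1 (chromosome 9, 45426628 to 45753712), a neural adhesion protein related to Dscam, ran from 4.82 to 8.37 CPM (median 5.39) in nondiabetic and from 59.1 to 84.6 CPM (median 73.2) in diabetic libraries, and rose by 3.60 ± 0.26 (adjusted p = 5.59e-12). Kcnip4, which encodes a potassium channel interacting protein, ran from 1.16 to 2.41 CPM (median 1.78) and from 8.75 to 12.4 CPM (median 10.4), and rose by 2.56 ± 0.20 (adjusted p = 7.21e-11). Plcd4, a phospholipase C, ran from 1.54 to 2.77 CPM (median 2.15) and from 7.42 to 9.48 CPM (median 9.36), and rose by 2.03 ± 0.14 (adjusted p = 3.55e-12). Dscaml1, Kcnip4, Plcd4 and Ltc4s each overlap a gene on the opposite strand, and the strand setting of the counting is not given in the sources used here. None of Dscaml1, Kcnip4 and Plcd4 had a diabetic library within the nondiabetic range. Ano3, of the anoctamin family of membrane proteins, rose by 3.00 ± 0.33 (adjusted p = 2.76e-07) from a nondiabetic median of 0.266 CPM to a diabetic one of 2.55 CPM. Nefl, the light chain of neurofilament, rose by 2.57 ± 0.36 (adjusted p = 2.22e-05) from 0.162 to 1.04 CPM. Fam212b rose by 2.21 ± 0.26 (adjusted p = 1.18e-06).

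Grem1, a secreted antagonist of bone morphogenetic proteins that is known from diabetic kidney disease, ran from 0.0637 to 0.429 CPM (median 0.131) in nondiabetic and from 1.12 to 3.58 CPM (median 1.95) in diabetic libraries. It rose by 3.45 ± 0.65 (adjusted p = 0.00132), with the diabetic libraries in 2 sets, at 1.12 to 1.23 CPM in Diabetic 1, 2 and 5 and at 2.67 to 3.58 CPM in the other 3. In the list of TGF-beta and BMP signalling, with 42 members tested, it was the one that passed in the shared edgeR fit, while DESeq2 called 2 risen and 1 fallen, limma voom 4 risen and 3 fallen, and the fit of the 12 libraries alone 3 risen and 6 fallen. Ugt1a10, a glucuronosyltransferase, ran from 0.407 to 3.5 CPM (median 0.772) and from 5.71 to 14.7 CPM (median 9.9), and rose by 3.08 ± 0.64 (adjusted p = 0.00381). Ugt1a10 shares exons with other genes of the Ugt1a cluster, so which of them the reads came from is uncertain. Ltc4s, the synthase of the leukotriene LTC4, ran from 1.59 to 2.69 CPM (median 2.47) and from 5.68 to 8.02 CPM (median 7.12), and rose by 1.62 ± 0.22 (adjusted p = 1.31e-05). In the shared edgeR fit it was the one risen gene among the 34 tested enzymes and receptors of eicosanoids, the lipid family that lipoxins belong to (limma voom called 4 risen and 3 fallen). In that fit 1 gene fell, Ptges3, also a cochaperone of HSP90, with a change of -0.40 (adjusted p = 0.0262; 0.0724 without Nondiabetic 1).

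Many genes of the cell cycle were higher in diabetic mice. Of 47 tested members 26 rose and 0 fell, with a median log2 difference of 0.66, and 46 of the 47 had a higher fitted value in diabetic mice. Without Nondiabetic 1 there were 21 risen members, and in the fit of the 12 libraries alone 23, while DESeq2 and limma voom each called 28 risen and 0 fallen. At an unadjusted p under 0.05, 34 members were higher and 0 lower. Against a minimum fold of 1.2 the count was 16 risen. Over all genes tested 2.81% rose. Promoters of 4 of the risen genes are shown because they carry CCAAT boxes, with TTTGAA in addition in Cdk1, Top2a and Mki67 and no TTTGAA match in the window of Ccnb1: Cdk1, the kinase that drives mitosis (chr10:69352913-69353162, minus strand), its partner cyclin B1, Ccnb1 (chr13:100786487-100786736, minus strand), the DNA topoisomerase Top2a (chr11:99024190-99024439, minus strand) and the proliferation marker Mki67 (chr7:135716380-135716629, minus strand). Each line gives the 250 bases before the RefSeq start on build GRCm38.p6, and capitals mark CCAAT and TTTGAA on either strand, that is CCAAT or ATTGG and TTTGAA or TTCAAA.
Cdk1: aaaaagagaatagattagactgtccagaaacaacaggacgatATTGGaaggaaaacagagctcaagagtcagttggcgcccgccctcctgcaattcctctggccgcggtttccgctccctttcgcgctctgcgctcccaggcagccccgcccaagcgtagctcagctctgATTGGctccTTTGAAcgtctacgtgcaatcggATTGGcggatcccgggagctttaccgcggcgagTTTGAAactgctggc
Ccnb1: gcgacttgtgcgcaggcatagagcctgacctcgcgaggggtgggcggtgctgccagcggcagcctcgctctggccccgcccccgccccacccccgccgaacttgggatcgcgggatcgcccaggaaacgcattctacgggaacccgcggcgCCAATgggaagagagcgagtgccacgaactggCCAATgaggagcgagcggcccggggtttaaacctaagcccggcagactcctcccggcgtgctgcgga
Top2a: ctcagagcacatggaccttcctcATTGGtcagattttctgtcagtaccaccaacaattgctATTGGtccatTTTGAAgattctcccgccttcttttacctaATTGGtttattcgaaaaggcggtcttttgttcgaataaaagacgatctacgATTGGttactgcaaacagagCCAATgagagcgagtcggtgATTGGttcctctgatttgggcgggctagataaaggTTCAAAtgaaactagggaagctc
Mki67: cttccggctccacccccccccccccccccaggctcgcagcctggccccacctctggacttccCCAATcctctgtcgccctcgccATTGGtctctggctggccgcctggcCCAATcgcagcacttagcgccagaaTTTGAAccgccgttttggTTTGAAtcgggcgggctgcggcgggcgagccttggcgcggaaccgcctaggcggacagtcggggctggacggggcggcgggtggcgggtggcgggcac
No CCAAT match overlapped a TTTGAA match in these windows. Of the 26 risen members, 20 had a promoter in the RefSeq table, of which 17 (85%) held CCAAT and 7 (35%) held TTTGAA, against 37.5% and 18.3% of all 27025 genes. Of the 16 p53 targets with a promoter, 13 (81.2%) held CCAAT and 3 (18.8%) TTTGAA. The matches are a description of these windows and no evidence of use.

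Values of the mitotic genes differed within the diabetic group. Mki67 was at 4.04 and 4.69 CPM in Diabetic 1 and 2 and from 12.2 to 13.4 CPM in Diabetic 3 to 6, against 1.06 to 4.64 CPM (median 3.09) in the nondiabetic libraries, and rose by 1.76 ± 0.29 (adjusted p = 2.70e-04). Cdk1 was at 0.907 and 1.01 CPM in Diabetic 1 and 2 and from 1.87 to 2.26 CPM in the other 4, against 0.396 to 0.803 CPM (median 0.603), and rose by 1.52 ± 0.25 (adjusted p = 2.25e-04). Top2a was at 2.85 and 2.51 CPM in Diabetic 1 and 2 and from 6.49 to 7.32 CPM in the other 4, against 0.661 to 3.61 CPM (median 1.93), and rose by 1.31 ± 0.30 (adjusted p = 0.00972). Diabetic 1 and 2 lay within the nondiabetic range for Top2a, on both sides of its upper end for Mki67 and just above it for Cdk1, and Diabetic 3 to 6 lay above it in all 3 genes. The same order, with both Diabetic 1 and 2 below each of Diabetic 3 to 6, held for 24 of the 26 risen members and for 34 of all 47, against 12.7% of all genes tested. Nondiabetic 3 was the lowest nondiabetic library in 29 of the 47 members, against 19.5% of all genes tested. The labels give no batch that separates these libraries. Ccnb1 ran from 0.0407 to 0.361 CPM (median 0.242) in nondiabetic and from 0.375 to 1.24 CPM (median 1.07) in diabetic libraries, and rose by 1.97 ± 0.36 (adjusted p = 8.16e-04). Rrm2, a subunit of the reductase that makes deoxynucleotides, rose by 1.28 ± 0.21 (adjusted p = 2.11e-04), and Anln, anillin of the cleavage furrow, by 1.46 ± 0.26 (adjusted p = 6.00e-04). Ccnd1, cyclin D1 of the G1 phase, ran from 98.2 to 132 CPM (median 112) and from 127 to 203 CPM (median 167), and rose by 0.57 ± 0.14 (adjusted p = 0.0182), with an adjusted p of 0.0508 without Nondiabetic 1. Pcna, the replication clamp, and Tyms, thymidylate synthase, did not pass, with differences of 0.09 and -0.03.

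**Figure D2:**
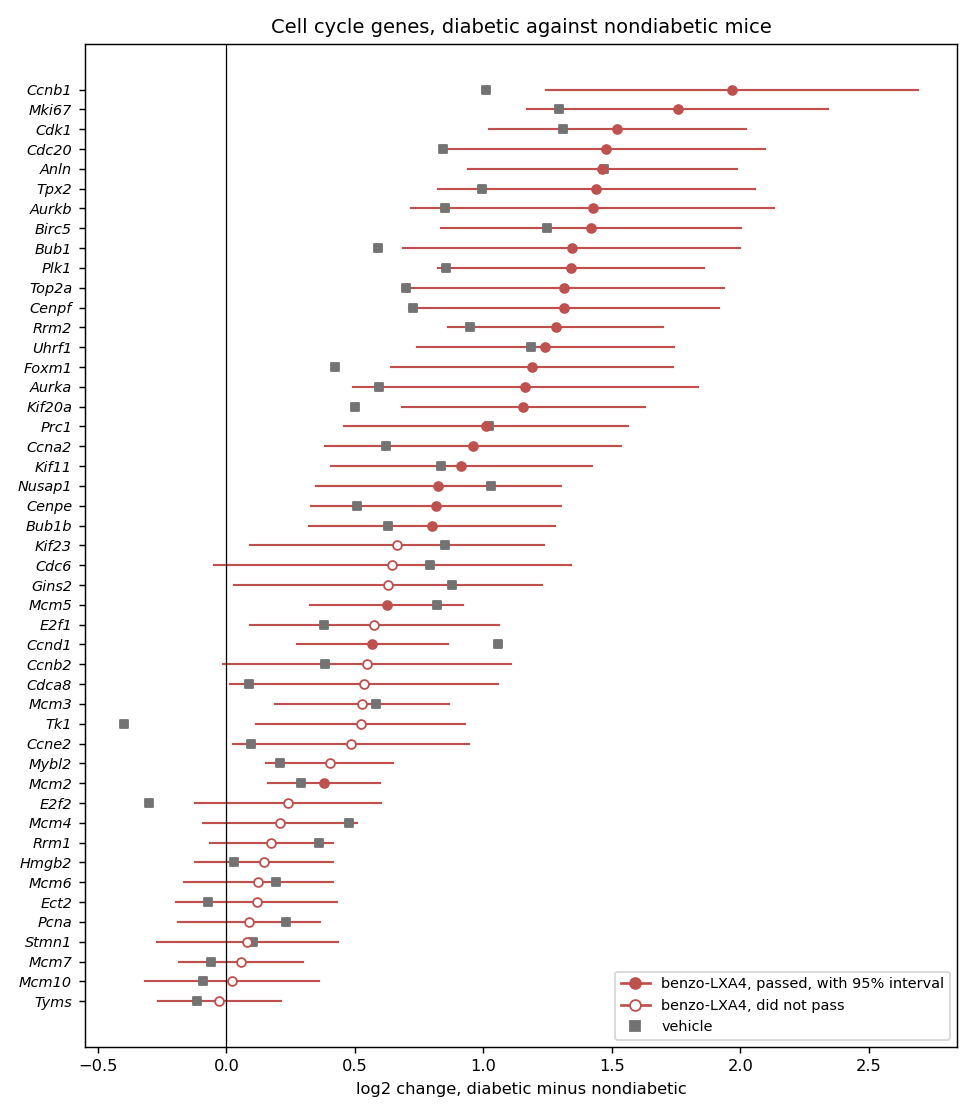
Log2 change from nondiabetic to diabetic mice of the 47 tested cell cycle genes. Red circles are the benzo-LXA4 libraries with their 95% interval, filled where the gene passed, and grey squares are the vehicle libraries. Of the 47 red circles, 46 lie to the right of 0, and the 26 filled ones reach from 0.38 for Mcm2 to 1.97 for Ccnb1.

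The falls of largest size were fat transcripts, highest in Nondiabetic 1 and often next highest in Nondiabetic 2. They included Ucp1, Cfd, Retn (resistin), Cidea and Plin1 (both lipid droplet proteins), and each of these 5 lost its call without Nondiabetic 1 (adjusted p from 0.134 for Cidea to 0.3004 for Retn). Of 30 tested markers of brown fat and adipocytes, 27 were highest in Nondiabetic 1 of all 12 libraries, against 15.6% of all genes tested. In 21 of those 27 Nondiabetic 2 was next, against 18.9% of all genes highest in Nondiabetic 1. Leaving out Nondiabetic 1 therefore does not remove all fat transcripts. The summed level of the 17 adipocyte markers was 2779 CPM in Nondiabetic 1, from 890.7 to 1159 CPM in Nondiabetic 2 to 6 and from 631.5 to 937.8 CPM in the diabetic libraries. Among these 17 markers 10 fell in the full comparison and 1 without Nondiabetic 1. The list of fatty acid synthesis moved in part with Nondiabetic 1. Of 28 tested members 4 fell and 0 rose, against 1.25% of all genes fallen. Without Nondiabetic 1 the count was 1, against 0.572%, and without Nondiabetic 1 and 2 it was 0. The median differences in these 3 fits were -0.29, -0.17 and -0.13. With all libraries 2 of the 28 had a higher fitted value in diabetic mice. Under vehicle 3 fell and 0 rose, against 2.16% of all genes fallen there. Fasn, fatty acid synthase, was at 2665 CPM in Nondiabetic 1, at 284 CPM in Nondiabetic 2 and from 92.7 to 204 CPM in Nondiabetic 3 to 6, against 84.4 to 100.2 CPM (median 92.4) in diabetic libraries. It fell by 2.64 ± 0.55 with all libraries (adjusted p = 0.00371), and without Nondiabetic 1 the difference was -0.75 and did not pass (adjusted p = 0.120). Scd1, the desaturase that makes oleate, was at 2710 CPM in Nondiabetic 1, at 325 CPM in Nondiabetic 2 and from 116 to 164 CPM in Nondiabetic 3 to 6, against 53 to 102 CPM (median 60.8) in diabetic libraries. It fell by 3.12 ± 0.59 (adjusted p = 0.00148) and by 1.34 without Nondiabetic 1 (adjusted p = 0.0287), and the difference was -0.99 without Nondiabetic 1 and 2 (adjusted p = 0.150). Fasn and Scd1 are also made in cells other than fat, and how far fat in the tissue piece accounts for their fall was not tested.

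**Figure D3:**
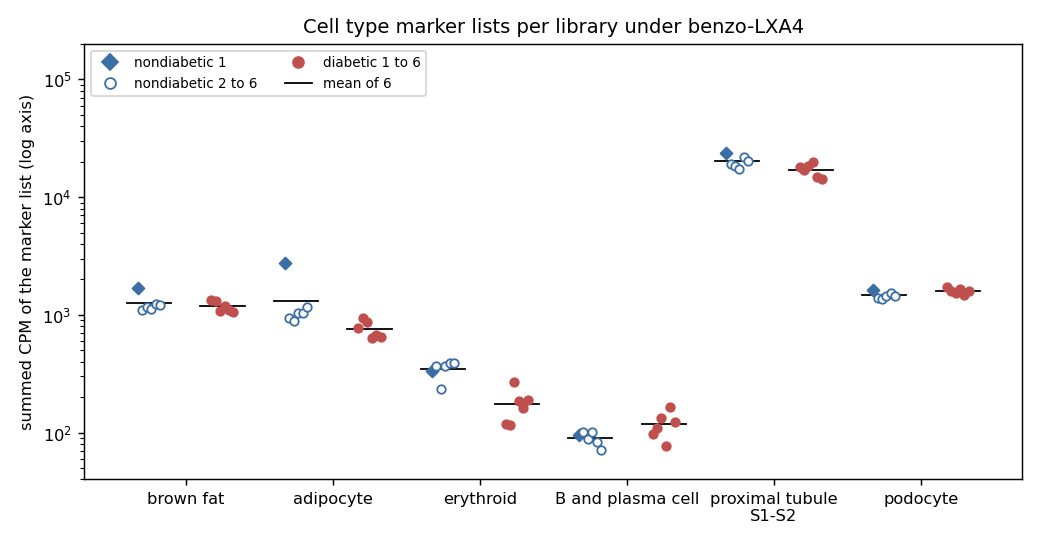
Summed level of 6 lists of cell type markers in each of the 12 libraries, in CPM on a log axis. Blue marks are nondiabetic libraries, with Nondiabetic 1 as a filled diamond, red marks are diabetic libraries, and black bars are means of 6. Nondiabetic 1 is the highest library of the adipocyte list at 2779 CPM, and 5 of the 6 diabetic libraries lie below every nondiabetic library in the erythroid list.

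Other falls did not rest on Nondiabetic 1. Car3, a carbonic anhydrase of fat and muscle, was at 222 CPM in Nondiabetic 1, and it ran from 8.92 to 29.5 CPM in Nondiabetic 2 to 6 and from 3.33 to 5.19 CPM (median 4.4) in diabetic libraries. It fell by 2.29 without Nondiabetic 1 (adjusted p = 0.0045) and by 2.31 without Nondiabetic 1 and 2 (adjusted p = 0.00858). Pappa2, a protease that frees insulin-like growth factors from their binding proteins, ran from 0.541 to 2.51 CPM (median 1.05) in nondiabetic and from 0.165 to 0.465 CPM (median 0.23) in diabetic libraries, and fell by 2.12 ± 0.48 (adjusted p = 0.00862). In both genes every diabetic library lay below every nondiabetic one. Cpne4, a calcium-dependent membrane-binding copine, ran from 11 to 24.9 CPM (median 16.5) and from 6.26 to 8.71 CPM (median 7.77), and fell by 1.17 ± 0.23 (adjusted p = 0.00222). Osr2, a transcription factor of kidney development, ran from 2.6 to 4.06 CPM (median 3.47) and from 1.06 to 1.86 CPM (median 1.42), and fell by 1.25 ± 0.25 (adjusted p = 0.00291). Slc22a26, an organic anion transporter gene, fell by 1.18 ± 0.28 (adjusted p = 0.0134), and Aldh3b3, an aldehyde dehydrogenase, by 1.42 ± 0.26 (adjusted p = 8.05e-04). Bhlhe40, a transcriptional repressor of the clock, fell by 0.66 ± 0.15 (adjusted p = 0.00768), with 57.99 and 58.3 CPM in Diabetic 1 and 2, from 31.5 to 42.1 CPM in Diabetic 3 to 6 and from 60.2 to 76.3 CPM in nondiabetic libraries. In contrast to these, F5, coagulation factor V, lost its call without Nondiabetic 1. It fell by 1.24 ± 0.36 (adjusted p = 0.0419; 0.0692 without Nondiabetic 1).

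Haemoglobin transcripts, which mark red blood cells and their precursors, were lower in the diabetic libraries. Of 8 tested erythroid markers 5 fell and 0 rose, against 1.25% of all genes fallen. The same counts held without Nondiabetic 1, in DESeq2 and in limma voom, and 2 fell without Nondiabetic 1 and 2. Hbb-bs, a beta globin, ran from 85.6 to 182 CPM (median 156) in nondiabetic and from 40.1 to 123 CPM (median 59.3) in diabetic libraries, and fell by 1.15 ± 0.28 (adjusted p = 0.0132). Hba-a2, an alpha globin, ran from 29.6 to 62.9 CPM (median 53.8) and from 15.8 to 36.8 CPM (median 25.5), and fell by 1.03 ± 0.23 (adjusted p = 0.00824). Alas2, the first enzyme of haem synthesis in red cells, fell by 0.92 ± 0.26 (adjusted p = 0.0362). The globin genes come in near-identical pairs, so the split of reads within a pair is uncertain. Both libraries numbered 3 differed from their groups. The summed erythroid level was 235 CPM in Nondiabetic 3, against 331 to 394 CPM in the other nondiabetic libraries, and 271 CPM in Diabetic 3, against 115 to 188 CPM in the other diabetic ones. The part of blood left in the tissue pieces was not tested. Under vehicle the same 5 genes had differences of 0.27 to 0.50 that did not pass. The difference between the diabetes effects, benzo-LXA4 minus vehicle, was -1.47 for Hba-a2 (95% interval -2.14 to -0.80, unadjusted p = 8.44e-05), the lowest p of that test over all genes, and it did not pass after adjustment (adjusted p = 0.888).

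Some antibody and lymphocyte genes rose in the diabetic libraries. Of 10 tested markers of B and plasma cells 3 rose and 0 fell, with a median log2 difference of 1.23, and 1 rose without Nondiabetic 1 and 2. Over all genes tested 2.81% rose and 1.25% fell. The risen share was 2.14% without Nondiabetic 1 and 1.63% without Nondiabetic 1 and 2. Igha, the heavy chain of IgA, ran from 4.28 to 14.3 CPM (median 8.17) in nondiabetic and from 8.44 to 63.5 CPM (median 35.8) in diabetic libraries, and rose by 1.99 ± 0.44 (adjusted p = 0.00633). Jchain, the joining chain of IgA and IgM, ran from 1.6 to 5.16 CPM (median 2.1) and from 2.63 to 17.9 CPM (median 7.76), and rose by 1.76 ± 0.38 (adjusted p = 0.00518). The groups overlapped in both genes: Diabetic 4 lay within the nondiabetic range of Igha and Diabetic 1 and 4 within that of Jchain, and Nondiabetic 4 was the highest of its group in both. Pou2af1, a coactivator of B cells, rose by 1.56 ± 0.41 (adjusted p = 0.0239), from a nondiabetic median of 0.327 CPM to a diabetic one of 0.682 CPM. Of 10 T and NK cell markers 2 rose and 0 fell, and 1 rose without Nondiabetic 1. Among them Cd247, the zeta chain of the T cell receptor complex, rose by 0.93 ± 0.18 (adjusted p = 0.002). None of 22 markers of macrophages and other myeloid cells passed in the shared edgeR fit or DESeq2 (3 at an unadjusted p under 0.05, and 4 in limma voom), with a median difference of 0.31. The fit of the 12 libraries alone called 1 risen. Of the 22 markers, 21 had a higher fitted value in diabetic mice, against 7628 of all 15726 genes tested. Their summed level ran from 305.5 to 318.5 CPM in nondiabetic and from 304.7 to 381.6 CPM in diabetic libraries. Cxcl10, a chemokine that attracts T cells, ran from 0.974 to 1.7 CPM (median 1.29) and from 2.14 to 3.83 CPM (median 3.08), and rose by 1.19 ± 0.24 (adjusted p = 0.00265). It and Birc3, an NF-kB-induced inhibitor of apoptosis (0.51 ± 0.11, adjusted p = 0.00768), were the risen genes among 28 cytokines and NF-kB targets in the shared edgeR fit. For this list DESeq2 called 4 risen and 0 fallen, and limma voom 6 and 0. At an unadjusted p under 0.05, 10 members were higher and 0 lower. Of 36 interferon response genes 0 passed in the shared edgeR fit or DESeq2 (3 at an unadjusted p under 0.05, and 4 in limma voom). The fit of the 12 libraries alone called 5 risen and 0 fallen in each of these 2 lists, against 6.47% of all genes risen there.

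Slc2a9, a urate and glucose transporter, ran from 31 to 50.2 CPM (median 44.2) in nondiabetic and from 60.6 to 84.8 CPM (median 69.98) in diabetic libraries, and rose by 0.77 ± 0.13 (adjusted p = 2.70e-04). In the list of gluconeogenesis and glucose transport, with 31 members tested, it was the one that passed in the shared edgeR fit. In that fit 2.81% of all genes tested rose and 1.25% fell. For the list DESeq2 called 1 risen and 1 fallen and limma voom 2 risen and 1 fallen. Klhl3, an adaptor of the ubiquitin ligase that degrades WNK kinases in the distal nephron, ran from 127 to 165 CPM (median 146) and from 176 to 263 CPM (median 201), and rose by 0.52 ± 0.09 (adjusted p = 4.90e-04). Scnn1b, the beta subunit of the epithelial sodium channel, ran from 39.6 to 47.8 CPM (median 43.5) and from 50.9 to 69.1 CPM (median 62.5), and rose by 0.47 ± 0.10 (adjusted p = 0.00599). The groups were apart in all 3 genes. Klhl3 and Scnn1b were the 2 of 45 genes of distal sodium and water transport that passed in the shared edgeR fit, against 2.81% risen overall genes tested. DESeq2 called 4 risen and 1 fallen, and limma voom 10 risen and 2 fallen. The fit of the 12 libraries alone called 7 risen and 3 fallen, against 6.47% and 5.55% of all genes. Among markers of the distal convoluted tubule, which include Klhl3, 9 of 10 had a higher fitted value in diabetic mice. Of all 15726 genes tested 7628 did. The median log2 difference of the 10 markers was 0.31, against -0.01 over all genes tested. Their summed level ran from 3571 to 4731 CPM in nondiabetic and from 4540 to 6996 CPM in diabetic libraries. Of these 10 markers 1 rose in edgeR, Klhl3 itself, 2 in DESeq2 and 8 in limma voom. Their part in the rise of the distal genes was not tested. Slc15a1, the intestinal type of peptide transporter, ran from 0.447 to 0.892 CPM (median 0.608) and from 1.13 to 2.84 CPM (median 2.06), and rose by 1.70 ± 0.27 (adjusted p = 1.52e-04). Of 86 detoxification enzymes 7 rose and 3 fell, against 2.81% and 1.25% of all genes tested, and without Nondiabetic 1 and 2 the counts were 5 and 1. The risen ones included the carboxylesterase Ces2e (0.97 ± 0.13, adjusted p = 2.22e-05) and the retinaldehyde dehydrogenase Aldh1a1 (1.27 ± 0.33, adjusted p = 0.0211). Miox, the inositol oxygenase of the proximal tubule, ran from 486 to 929 CPM (median 729) and from 394 to 575 CPM (median 464). It fell by 0.61 ± 0.18 (adjusted p = 0.0395, and 0.0858 without Nondiabetic 1). Miox is also 1 of the 16 early proximal tubule markers, of which 0 had a higher fitted value in diabetic mice. Their median log2 difference was -0.21, and -0.16 without Nondiabetic 1. Of the 16, 1 fell in the shared edgeR fit, Miox itself, 2 in DESeq2 and 3 in limma voom. Their part in the fall of Miox was not tested.

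Chaperones of the endoplasmic reticulum were lower, by small amounts. Of 34 genes of the unfolded protein response 5 fell and 0 rose, with a median difference of -0.25, and 1 of them, Dnajc3, kept its call without Nondiabetic 1. Over all genes tested 1.25% fell, and 0.572% did so without Nondiabetic 1. Hsp90b1, the chaperone GRP94, ran from 234 to 306 CPM (median 268) in nondiabetic and from 145 to 238 CPM (median 181) in diabetic libraries, and fell by 0.54 ± 0.15 (adjusted p = 0.0299; 0.0753 without Nondiabetic 1). Calr, calreticulin, fell by 0.50 ± 0.14 (adjusted p = 0.0331; 0.075 without Nondiabetic 1), and Dnajc3, which restrains the kinase PERK, by 0.35 ± 0.08 (adjusted p = 0.00505). In the fit of the 12 libraries alone 13 of the 34 fell, against 5.55% of all genes tested there. Of 46 genes of fatty acid oxidation 2 fell in the shared edgeR fit, and 0 did so without Nondiabetic 1. They were Acadm, the medium-chain acyl-CoA dehydrogenase (-0.40 ± 0.12, adjusted p = 0.0426, and 0.0601 without Nondiabetic 1), and Ucp3, with 9.17 CPM in Nondiabetic 1 and at most 0.624 CPM elsewhere (adjusted p = 0.736 without it). Of the 46, 4 had a higher fitted value in diabetic mice, and the median difference was -0.23 (-0.16 without Nondiabetic 1). DESeq2 called 7 fallen and 0 risen, and limma voom 7 fallen and 1 risen. The fit of the 12 libraries alone called 8 of 45 fallen and 1 risen. At an unadjusted p under 0.05, 16 were lower and 1 higher. Under vehicle 9 of the 46 fell and 0 rose. Of 78 ribosomal protein genes 0 passed in edgeR, 1 fell in DESeq2 and 5 fell in limma voom (9 lower at an unadjusted p under 0.05), with a median difference of -0.18.

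Lists that are often followed in diabetic kidney disease are given beside the 2.81% of all genes that rose and the 1.25% that fell. Of 44 collagens and matrix glycoproteins 2 rose, the laminin chain Lama5 (0.43 ± 0.07, adjusted p = 4.15e-04) and the collagen Col14a1 (0.48 ± 0.14, adjusted p = 0.0466; 0.0597 without Nondiabetic 1), and 1 fell, Col8a1 (-1.17 ± 0.34, adjusted p = 0.0466; 0.188 without it). Of 23 matrix proteases and inhibitors 0 passed in edgeR or DESeq2, and limma voom called 1 risen and 2 fallen (2 higher and 1 lower at an unadjusted p under 0.05). Among 29 genes of tubular injury, Gdf15 and Clu, the secreted chaperone clusterin, rose. Clu ran from 92.4 to 128 CPM (median 102) and from 149.7 to 199 CPM (median 163), and rose by 0.70 ± 0.17 (adjusted p = 0.012). Havcr1, the injury marker KIM-1, did not pass (log2 difference 0.24, 95% interval -0.79 to 1.28), with Nondiabetic 3 at 6.61 CPM and the other nondiabetic libraries at 0.902 to 1.47 CPM. Egr1, the early growth response factor that the study's title names, ran from 2.64 to 4.55 CPM (median 2.97) and from 2.69 to 4.61 CPM (median 4.17), and did not pass (0.23 ± 0.29, 95% interval -0.35 to 0.82, adjusted p = 0.748). Of 26 immediate early genes 0 passed in edgeR, DESeq2 called 1 fallen, and limma voom 3 risen and 2 fallen (2 higher and 3 lower at an unadjusted p under 0.05). Bdkrb2, the bradykinin B2 receptor, was the risen member of 26 genes of the renin-angiotensin and kinin systems (1.04 ± 0.25, adjusted p = 0.0135).

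**Figure D4:**
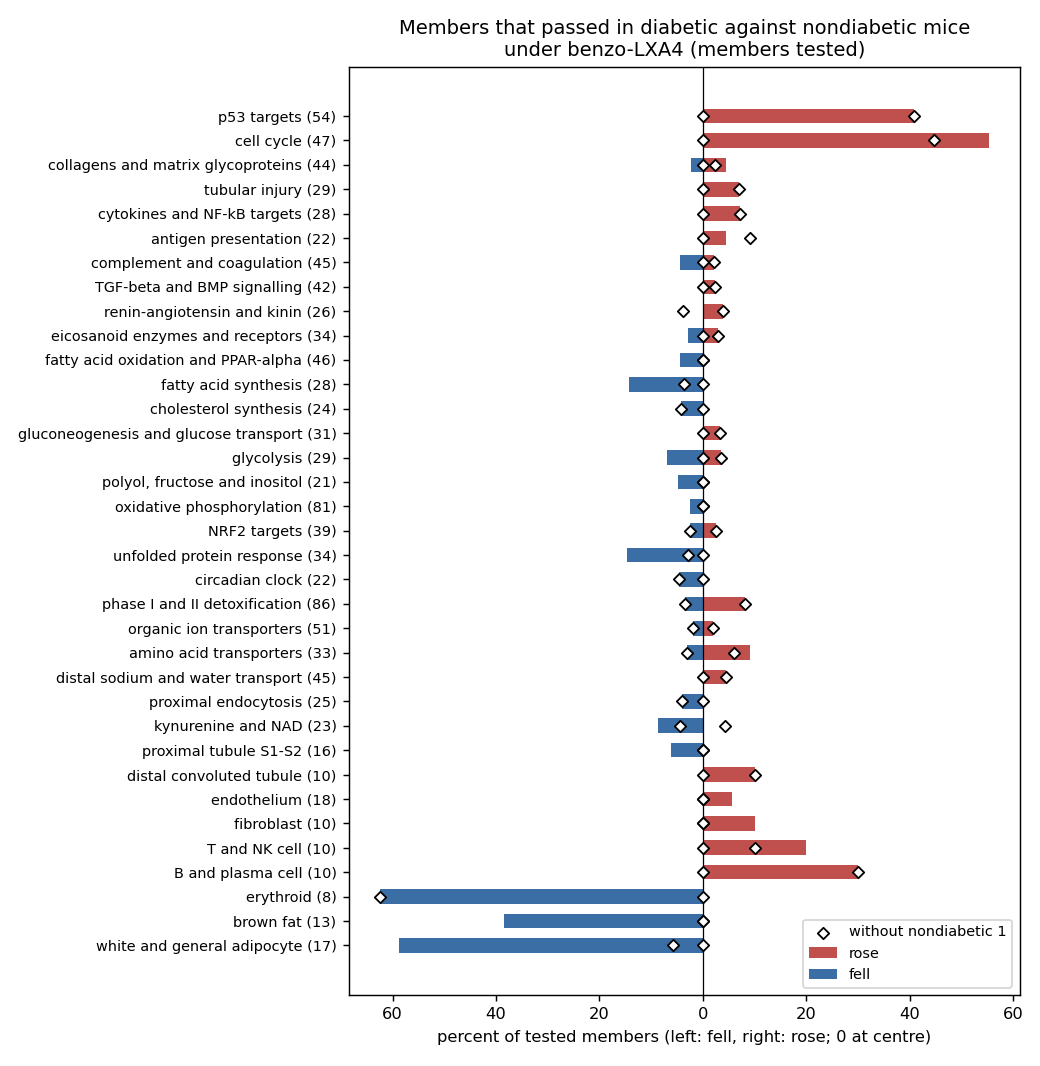
Percent of tested members of each gene list that rose (red, right of 0) or fell (blue, left of 0) in diabetic mice under benzo-LXA4, for the lists with at least 1 such member, with the number tested in brackets. White diamonds give the same without Nondiabetic 1. The red bars of cell cycle genes and p53 targets stand for 26 of 47 and 22 of 54 members, and the blue bars of brown fat and adipocyte genes shrink to 0 and to 1 of 17 members without that library.

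Leaving out each of the 12 libraries in turn, 225 of the 442 risen and 53 of the 196 fallen genes kept their call in all 12 fits. Among the genes named above, those with an adjusted p near the threshold lost their call in several of these fits: Acadm in 11 (highest adjusted p = 0.106), F5 in 10 (0.109), Col8a1 in 10 (0.188), Col14a1 in 9 (0.137), Miox in 9 (0.107), Mcm2 in 8 (0.126) and Alas2 in 8 (0.0861). Ptges3, Calr and Hsp90b1 lost it in 7 fits each (highest adjusted p = 0.081, 0.106 and 0.0947). Pou2af1 lost it without Nondiabetic 2, Nondiabetic 4 or Diabetic 5 (highest adjusted p = 0.118), Aldh1a1 in 3 fits (0.0593) and Ccnd1 in 2 (0.0593). The calls of Ucp1, Cfd, Cidea, Plin1, Retn, Ucp3 and Fasn were lost without Nondiabetic 1 and in none of the other 11 fits.

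The vehicle pair of groups, which shares no library with this one, gives a separate set of samples for the same contrast. The calls of both pairs come from the shared fit, with the same filter and estimate of the spread, so they are not independent. It includes a shallow library, Nondiabetic vehicle 3, with 10086698 counts and 0.3993% of them in mitochondrial mRNA. Under vehicle 881 genes differed (5.6%), 541 risen (3.44%) and 340 fallen (2.16%), and of these 201 of the 541 (37.2%) rose and 57 of the 340 (16.8%) fell under benzo-LXA4, while 0 were called the opposite way. Read from the other side, 45.5% of the risen and 29.1% of the fallen genes under benzo-LXA4 were called under vehicle. With each pair fitted on its own 12 libraries, 342 genes passed under vehicle. Of these, 160 of the 256 risen and 36 of the 86 fallen passed the same way under benzo-LXA4. In that benzo-LXA4 fit 6.47% of all genes rose and 5.55% fell. Whether called or not, 519 of the 541 (95.9%) and 328 of the 340 (96.5%) had a fitted value of the same sign. Over the 881 genes the log2 changes of the 2 pairs had a correlation of 0.887 across genes, which are not independent replicates, and 0.537 over all genes tested, 0.643 without Nondiabetic 1. The median change of the vehicle-risen genes was 0.85 under vehicle and 0.51 under benzo-LXA4, and that of the vehicle-fallen genes -0.48 and -0.26. These genes were chosen for their size under vehicle, which favours the larger value there, and the same held in reverse: genes risen under benzo-LXA4 had a median of 0.80 there and 0.54 under vehicle.

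The test of the difference itself called 0 genes. In edgeR the diabetes effect under benzo-LXA4 minus that under vehicle passed in 0 of 15726 genes (673 at an unadjusted p under 0.05), and limma voom and DESeq2 also called 0. Against the LXA4 pair, edgeR also called 0 (1463 at an unadjusted p under 0.05), limma voom 1 and DESeq2 3. The gene that every one of these other tools called was Atoh8, a transcription factor, which fell under benzo-LXA4 by 0.89 ± 0.22 (adjusted p = 0.0146) and rose under LXA4 by 0.73 (adjusted p = 0.0147). Its difference between the pairs was -1.62 in DESeq2 (adjusted p = 0.00399) and -1.47 in limma voom (adjusted p = 0.0276). Genes that passed under vehicle and not here were therefore not shown to differ between the pairs. Kynu, kynureninase of tryptophan breakdown, ran from 9.9 to 31.4 CPM (median 16.4) in nondiabetic and from 21.6 to 55.2 CPM (median 31.2) in diabetic libraries, with a difference of 0.82 that did not pass (adjusted p = 0.280), against a rise of 2.44 under vehicle. The interval of the difference between the 2 effects ran from -2.76 to -0.47 (unadjusted p = 0.00709, adjusted p = 0.899). Cyp2d12, a cytochrome P450 of a family of similar genes, had a difference of -0.74 (adjusted p = 0.207) against a fall of 1.93 under vehicle. Egr1 rose by 1.04 under vehicle (adjusted p = 0.0259), and its difference between the effects was -0.81 (95% interval -1.64 to 0.02). In the other direction, Slc2a9 and Klhl3 had differences of 0.18 and 0.14 under vehicle that did not pass. With LXA4, in another set of 12 libraries, 4353 genes differed (27.7%), 2415 risen (15.4%) and 1938 fallen (12.3%). In all 3 pairs 172 genes rose and 51 fell. The LXA4 pair includes Diabetic lipoxin 6, with 8896193 counts and 43.34% of them in structural RNA. Without it and Nondiabetic vehicle 3, 5796 genes differed with LXA4, 1399 under vehicle and 1906 under benzo-LXA4. The counts of the 3 pairs therefore depend on these 2 libraries.

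**Figure D5:**
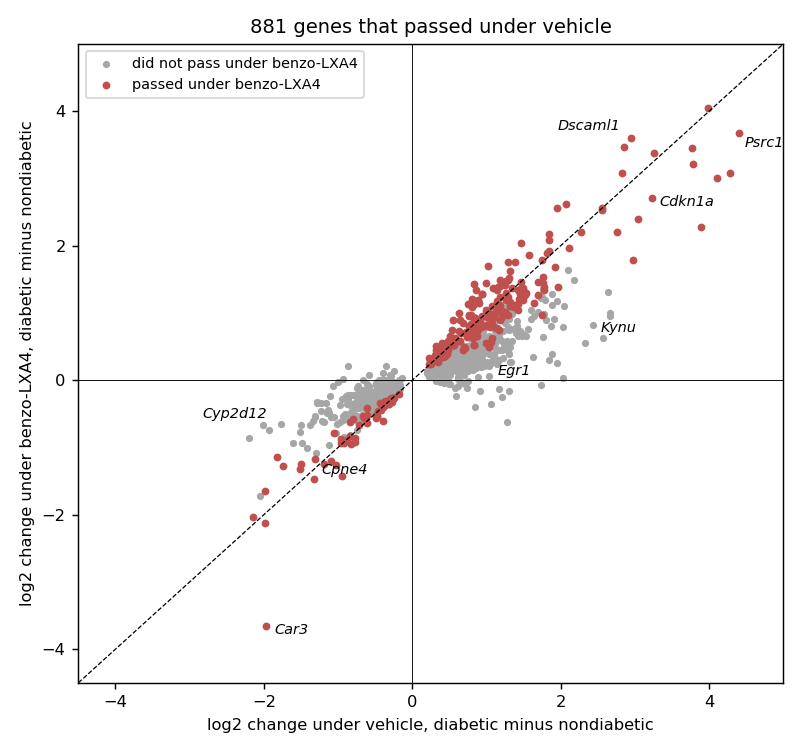
Log2 change from nondiabetic to diabetic mice of the 881 genes that passed under vehicle, under vehicle on the horizontal axis and under benzo-LXA4 on the vertical axis, with the line of equal change dashed. Red points also passed under benzo-LXA4 (258 genes), grey points did not. No red point lies in a quadrant of opposite sign.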

How the data were processed

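RNA was measured in mouse kidney cortex by sequencing of rRNA-depleted, strand-marking libraries. The deposited table holds raw read counts per gene for 36 libraries (15730 genes, none with a total under 370). Per the submitters' processing notes, bcl2fastq 2.17.1.14, STAR, featureCounts and the GRCm38 build were used; the strand setting is not given in the sources used here. Genes were tested with edgeR 4.0.16 (R 4.3.3; TMM scaling, filterByExpr, quasi-likelihood F test, Benjamini-Hochberg adjusted p under 0.05), with all 36 libraries in one fit of 6 groups. Levels are CPM on TMM-normalised totals. Fits with limma 3.58.1 (voom) and DESeq2 1.42.0, other scalings and filters, and fits without single libraries were alternatives. The fit was tested on simulated data. The simulation held no outlying library, so it does not cover the effect of one such as Nondiabetic 1. Coordinates come from GENCODE M21, promoters from RefSeq (GRCm38.p6).

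Named genes are the checked genes Apoe and Egr1, the 15 largest rises and falls at 1 CPM or more, up to 5 members of each list with the lowest p, the 5 lowest p of each test between pairs, genes named earlier under vehicle, and fat markers highest in Nondiabetic 1. Outside that rule, 15 genes were chosen after their values were seen: Aen, Aldh1a1, Bbc3, Ccnd1, Ccng1, Fas, Havcr1, Mcm2, Mdm2, Pcna, Tnfrsf10b, Top2a, Trp53inp1, Tyms and Zmat3. The comparison, the gene lists and the naming rule were chosen with earlier results of these data known. Apoe, disrupted in all mice, was at a median under 3 CPM in both groups and did not pass (log2 difference -0.18, adjusted p = 0.643). Counting depth limits genes near 1 CPM most. Some results are not reported here.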

Additional observations from a re-analysis of the deposited data

Results flagged for a closer look

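In each group of 6 benzo-LXA4 libraries, the gap from the most extreme library to its nearest neighbour was set against the group's whole range. This is Dixon's criterion, which chance passes in about 1 of 20 groups of unselected, normally distributed values. That rate does not carry over to these groups, whose genes were chosen in part by their values and whose CPM were not log-transformed. Of the 162 groups of the 81 genes named in the text, 23 held a library apart. In 12 of these it was Nondiabetic 1, of which 6 concern fat markers: Ucp1 at 122.5 CPM, Cfd at 150.2, Cidea at 65.61, Plin1 at 74.53, Retn at 21.76 and Car3 at 222 CPM. The others in Nondiabetic 1 were Fasn at 2665 CPM, Scd1 at 2710, Ucp3 at 9.167, Phlda3 at 11.91, Tnfrsf10b at 4.15 and Fam212b at 1.552 CPM. The naming rule takes the largest falls and the fat markers highest in Nondiabetic 1, so the leading place of that library was partly set in advance.

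In Nondiabetic 3, Havcr1 stood apart at 6.607 CPM, Pappa2 at 2.511 and Ugt1a10 at 3.502 CPM. In Nondiabetic 4 it was Jchain at 5.164 CPM and Rrm2 at 2.562 CPM. In Diabetic 4, Kynu at 55.23 CPM and Cyp2d12 at 68.35 CPM lay above the rest of their group, and in Diabetic 3 Aldh3b3 did at 1.143 CPM. Diabetic 5 had Plin1 at 0.15 and Retn at 0.03749 CPM, and Diabetic 6 had Ucp1 at 0.03873 CPM, levels of a few reads at most.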

How the results depend on the processing

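The count of 638 genes moved to 1875 with only the 12 libraries in the fit. It moved to 1906 without the 2 libraries of lowest total count in the series (Nondiabetic vehicle 3 and Diabetic lipoxin 6). At a mean of 5 CPM or more it was 313, for a minimum fold of 1.2 186, in limma voom 2568 and in DESeq2 1066. Alternatives chosen after seeing the data gave 1674 (11 libraries, without Nondiabetic 1), 1351 (33 libraries, without Nondiabetic 1 and those 2) and 307 (without Nondiabetic 1 and 2). Leaving out 1 library gave 389 (without Diabetic 5) to 606, with 413 without Diabetic 6. Upper-quartile scaling called 541 risen and 160 fallen. The 126 called list members became 239, 258, 60, 65 and 286 under the first 5 of these settings, 223 with 11 libraries, 73 without Nondiabetic 1 and 2, and 92 to 129 with 1 library left out. The vehicle count of 881 became 342 (its own 12 libraries), 1399 (without the 2 libraries), 2221 (voom), 1329 (DESeq2) and 1499 (33 libraries), and the LXA4 count of 4353 became 2338 (its own libraries) and 6954 (voom). The difference between the benzo-LXA4 and LXA4 pairs called 1 gene with only the libraries compared, 1 in voom and 3 in DESeq2, and that to vehicle 0 in each alternative run. The cause of these moves was not tested. Without Nondiabetic 1 and 2 the log2 differences of Cox8b (2.62), Nat8l (1.36), Acvr1c (0.64), RP23-143B2.2 (0.47), Thrsp (0.69), Hk2 (0.51) and Fabp4 (0.03) turned positive, and that of Nat8l was 0.10 in voom; none of these passed.

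The labels give the groups shared replicate numbers, without saying that a number marks a shared mouse, litter or day. Deviations of same-numbered libraries of the 2 groups had correlations of 0.124, -0.155, -0.131, -0.53, -0.261 and -0.17, and none correlated best with its own number, so no pairing was used. With the replicate number as a block, 542 genes passed in the shared fit and 615 in the fit of the 12 libraries alone. With the block in the fit of the 12 libraries, 5 of the 47 cell cycle genes rose (20 in the shared fit), 21 of the 54 p53 targets rose (22), 1 of the B and plasma cell markers rose (3), 1 of the T and NK cell markers rose (1) and 1 of the erythroid markers fell (4).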
